A study of Mus musculus with 30 samples.

Results

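A set of 10 genes of the prohormone processing and granin machinery was followed in islets of mice given cadmium and in cultured islets exposed to it. The genes, chosen by name, were Pcsk1, Pcsk2, Cpe, Scg5, Pcsk1n, Chga, Chgb, Scg2, Scg3 and Ptprn, of 54232 gene IDs counted, and all 10 passed the filter on low counts in every comparison. Islets are the endocrine clusters of the pancreas. They came from male wild-type C57BL/6N mice, and total RNA was sequenced. The study made 5 vehicle and 4 cadmium libraries after 6 weeks in vivo, and 6 vehicle and 5 cadmium libraries after 18 weeks in vivo, with cadmium given as 1 mM cadmium chloride. Isolated islets were cultured for 96 hours with vehicle (5 libraries) or 0.5 uM cadmium chloride (5 libraries). Route of dosing, age and any pooling of animals are not stated in the sources used here. The labels do not tell whether libraries of a group are separate animals or cultures, so p-values speak only of the spread among libraries, part of which may be technical.

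Peptide hormones are made as larger precursors that are cut inside secretory granules. Prohormone convertases cut at pairs of basic residues, a carboxypeptidase trims the exposed basic residues, and granins help to gather cargo into the granule core. In beta cells this path turns proinsulin into insulin and C-peptide, and in alpha cells it turns proglucagon into glucagon.

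Total counts were 49564350 to 58366797 per library at 6 weeks, 9092759 to 51852364 at 18 weeks and 24197072 to 26549350 in culture. Libraries vehicle 4, vehicle 6 and cadmium 5 of the 18-week set were the shallowest. Ins1 and Ins2 together held a mean of 21.2% of counts in vehicle at 6 weeks, 12.9% in vehicle at 18 weeks and 13.3% in vehicle culture, so the defining beta cell product was abundant in each. Transcripts of 16 acinar markers, from the exocrine cells around islets, held 2.37% to 4.34% (vehicle) and 3.20% to 7.11% (cadmium) of counts at 6 weeks, 0.219% to 1.52% and 1.37% to 16.3% at 18 weeks, and at most 0.00779% in culture. The 10 genes together held 3.24% ± 0.0644 (SD, n = 5) of counts in vehicle at 6 weeks, 2.67% ± 0.130 (SD, n = 6) in vehicle at 18 weeks and 2.51% ± 0.0815 (SD, n = 5) in vehicle culture. In the matching cadmium groups they held 3.10% ± 0.191 (SD, n = 4), 2.43% ± 0.358 (SD, n = 5) and 2.46% ± 0.0641 (SD, n = 5).

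Promoter sequence was read for 9 of the 10 genes (all but Cpe) from RefSeq windows of 300 bases, 250 before and 50 after each annotated start, on build GRCm38.p6. The cAMP response element, TGACGTCA, is a known binding site of CREB family factors, and it reads the same on both strands. It was found in 3 of the 9 genes, against 1.79% of 32851 windows in the table. It lay 78 bases before the start in Pcsk1, 72 in Chgb and 68 in Scg2. Chga carried the related TGACGTAA, 44 bases before its start, which 0.499% of windows hold on either strand. That second spelling was added after the sequences had been seen. The 4 stretches are shown, with the element in capitals, as a sequence feature that several of the genes share and that played no part in choosing them. Each is written 5′ to 3′ along the gene.
Pcsk1: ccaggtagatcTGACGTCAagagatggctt
Chgb: gggctgctccgTGACGTCAgggctgagcga
Scg2: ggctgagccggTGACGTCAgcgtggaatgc
Chga: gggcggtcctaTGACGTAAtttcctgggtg
The Pcsk1 stretch is chr13:75089768-75089797 on the plus strand, that of Chgb chr2:132781559-132781588 on the plus strand, that of Scg2 chr1:79440076-79440105 on the minus strand and that of Chga chr12:102554886-102554915 on the plus strand. The Chgb and Scg2 stretches lie inside the wider gene bounds of the GENCODE annotation. The metal response element, searched as TGCACNC and TGCGCNC on both strands, was found in windows of 5 genes (Pcsk2, Chga, Chgb, Pcsk1n and Ptprn), and 25.7% of all windows hold it. These matches describe letters in a window and say nothing of binding.

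Levels are given as CPM, the counts of a gene for every 1e6 counts of the library, with library sizes adjusted by the TMM method over all 30 libraries. That method assumes that most genes are unchanged. Divided by exon length, the levels in vehicle at 6 weeks spanned from 4829.8 ± 214 CPM per kb (SD, n = 5) for Chga to 147 ± 37.3 for Pcsk1n. Between them stood Scg2 at 3266 ± 175, Cpe at 1362 ± 37.8, Chgb at 609 ± 5.88, Scg3 at 522 ± 33.8, Pcsk2 at 488 ± 31.5, Scg5 at 365 ± 22.6, Pcsk1 at 169 ± 14.2 and Ptprn at 153 ± 7.19 CPM per kb. The libraries of Scg3 and Pcsk2 overlapped on this scale, as did those of Pcsk1, Ptprn and Pcsk1n.

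**Figure D1:**
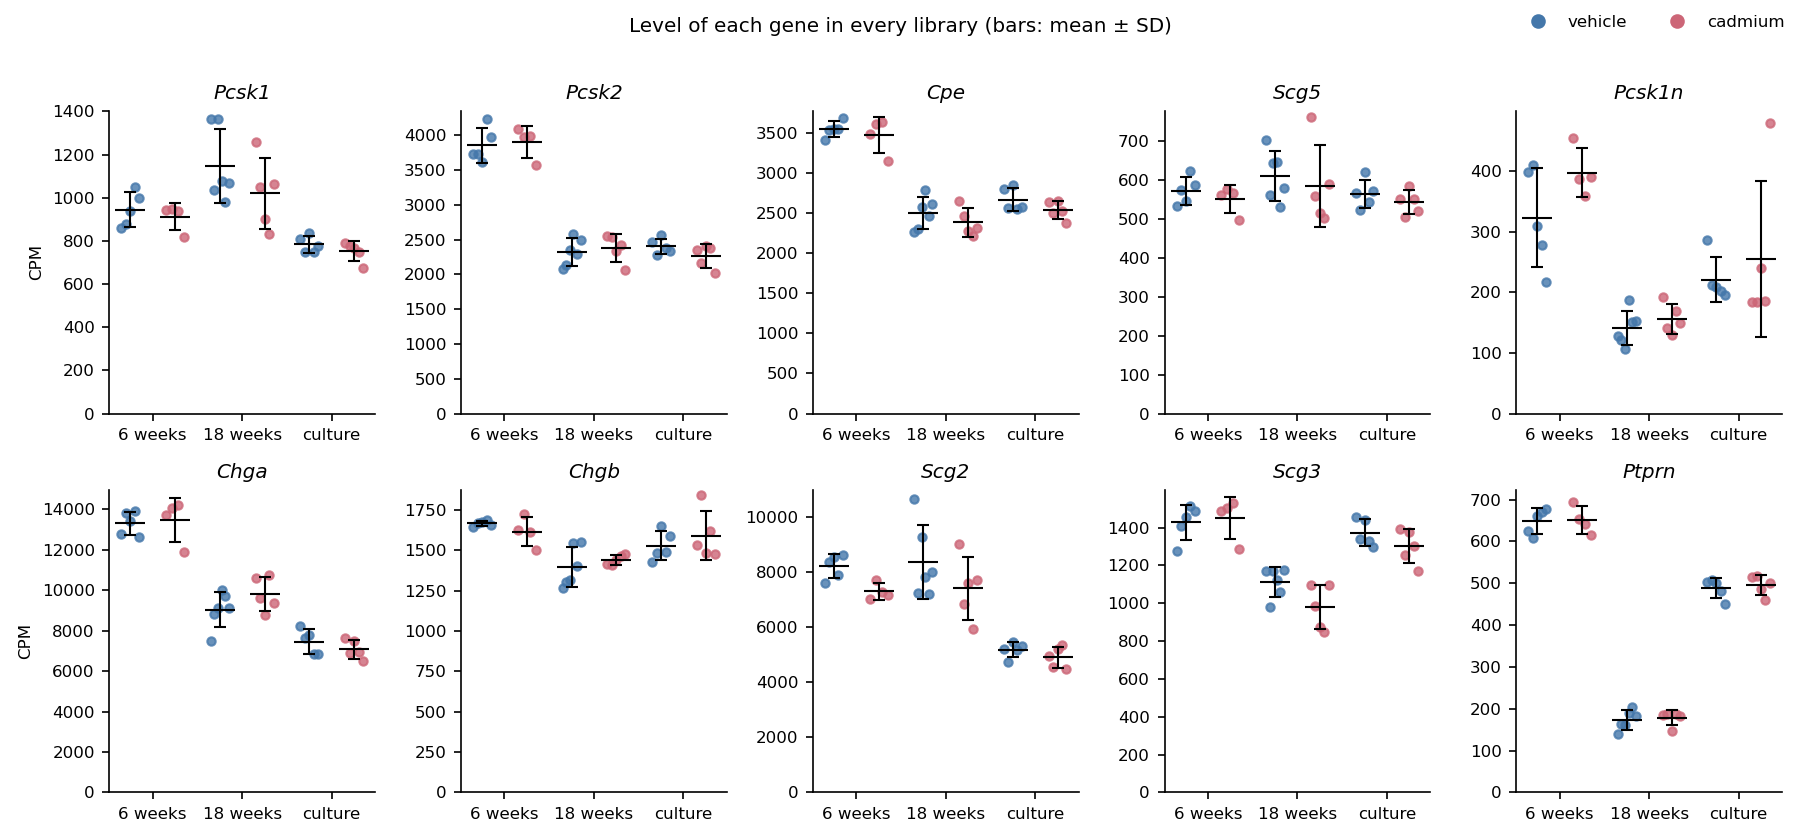
CPM of each gene in every library on linear axes from 0, with vehicle in blue and cadmium in red in the order 6 weeks, 18 weeks and culture, and bars for mean ± SD (4 to 6 libraries a group). Cadmium and vehicle points overlap in every pair of groups, while Ptprn falls from 648 CPM in vehicle at 6 weeks to 174 CPM at 18 weeks.

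The first question was whether cadmium changed these genes in any of the 3 settings. Of the 10 genes, 0 passed the test (edgeR quasi-likelihood, Benjamini-Hochberg adjusted p under 0.05 over all genes) at 6 weeks, at 18 weeks or in culture, and for no gene did the cadmium libraries lie wholly above or below the vehicle libraries. The test called 0% of all genes at 6 weeks, 0.359% at 18 weeks (0.344% higher and 0.0143% lower) and 0.00597% in culture, and groups were fully apart for 1.41%, 1.47% and 0.726% of 22721 genes. At an unadjusted p under 0.05 stood 1 of the 10 genes at 6 weeks (Scg2) and 0 at the other settings, against 923 of 18080, 3804 of 20911 and 920 of 16743 genes tested. DESeq2 called 0 of the 10 in each setting. The median log2 fold change of the 10 was -0.02 at 6 weeks, -0.01 at 18 weeks and -0.06 in culture, where the median over all genes tested was 0.00 each time.

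The intervals bound what these libraries could have missed in fits without an adjustment for GC content. The 95% interval of the log2 fold change lay within 0.5 either way for 9 genes at 6 weeks, 10 at 18 weeks and 9 in culture, with Pcsk1n as the exception both times. For Chgb at 6 weeks, the gene with the narrowest spread in vehicle, it ran from -0.15 to 0.05. The widest at 18 weeks was that of Scg2, from -0.49 to 0.15. For the convertases it ran from -0.22 to 0.10 (Pcsk1) and from -0.13 to 0.16 (Pcsk2) at 6 weeks, and from -0.44 to 0.11 and from -0.19 to 0.27 at 18 weeks. Cadmium fold changes at 18 weeks moved with GC content of the longest transcript. From the fifth of genes with the lowest to that with the highest, medians were -0.20, -0.08, 0.00, 0.08 and 0.16. Genes within 1 GC point had medians of -0.17 for Pcsk1 (itself -0.17), -0.03 for Pcsk2 (0.04) and -0.04 for Scg2 (-0.17). The part of GC content was not tested beyond the alternatives given below.

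**Figure D2:**
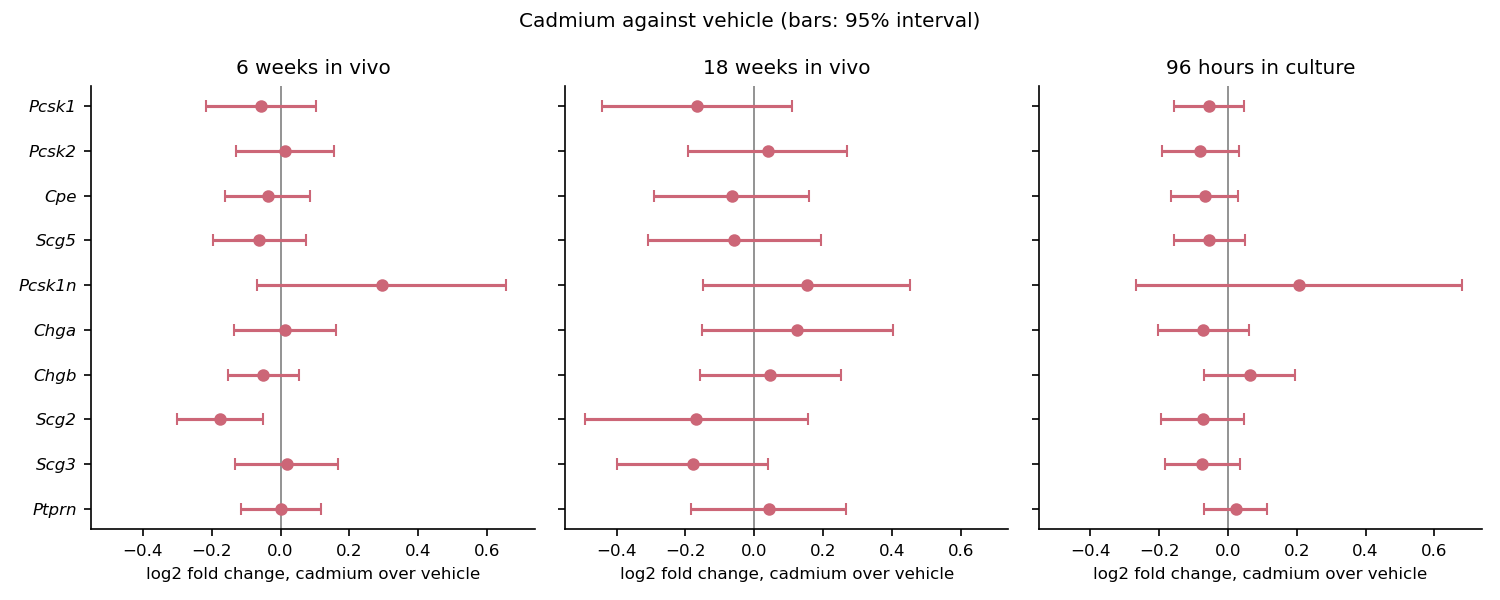
Log2 fold change of cadmium over vehicle (horizontal axis) for each gene at 6 weeks, 18 weeks and 96 hours in culture, with bars for the 95% interval from edgeR. All intervals but that of Scg2 at 6 weeks cross 0, and those of Pcsk1n at 6 weeks and in culture are the widest of their panels.

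Scg2, which encodes secretogranin II, the precursor of secretoneurin, had the smallest p of the 10 with cadmium at 6 weeks. Its vehicle libraries held 7619, 8359, 8558, 7901 and 8639 CPM and its cadmium libraries 7043, 7732, 7287 and 7160.0 CPM. Of the 4 cadmium libraries 3 were below every vehicle library and the other stood inside the vehicle range. The log2 fold change was -0.18 ± 0.0564 (SE), with an unadjusted p of 0.0102 and an adjusted p of 0.919 by edgeR. The values at 18 weeks (-0.17 ± 0.151) and in culture (-0.07 ± 0.0567) had the same sign and did not pass.

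Pcsk1n encodes proSAAS, a granin-like protein and an inhibitor of the convertase encoded by Pcsk1. It had the largest cadmium fold change of the 10 at 6 weeks and in culture, and the widest spread between libraries. At 6 weeks it held 399, 410.2, 309.7, 279 and 217 CPM in vehicle and 455, 387, 358 and 390.0 CPM in cadmium libraries, a log2 fold change of 0.29 ± 0.164 with overlapping groups. In culture it held 286, 213, 208, 202 and 196 CPM in vehicle and 184, 184, 239, 185 and 480.1 CPM in cadmium libraries. The culture value of 0.21 ± 0.222 rested on cadmium library 5 alone, and without that library it was -0.15. That library was also the lowest of its group for 7 of the 10 genes.

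Whether the effect of cadmium differed between settings was asked in 1 fit of all 30 libraries. For none of the 10 did the effect at 18 weeks differ from that at 6 weeks, or the effect in culture from either, past the threshold, where edgeR called 1.68% of all genes for 18 weeks minus 6 weeks (0.898% higher, 0.783% lower), 0% for culture minus 6 weeks and 0.0176% for culture minus 18 weeks (0.0044% higher, 0.0132% lower). No gene of the 10 had an unadjusted p under 0.05 in these 3 contrasts, and DESeq2 called 0 of them. The value nearest to a call was that of Scg3 between 18 and 6 weeks, a difference of -0.21 ± 0.108 log2 units (edgeR adjusted p = 0.266). The contrasts share libraries, so their values are not independent.

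The share of acinar transcripts ran higher with cadmium at 18 weeks, where 15 of the 16 markers were called higher (median over the list 3.43 on the log2 scale). The shares overlapped, at 0.219% to 1.52% for vehicle and 1.37% to 16.3% for cadmium. By leaving out single libraries, calls over all genes in this comparison ran from 0 to 318. The marker calls can thus be lost with a single library. As a share of counts outside those markers, the 10 genes held 2.69% ± 0.128 (SD, n = 6) for vehicle and 2.59% ± 0.241 (SD, n = 5) for cadmium. Neither a covariate for that share nor scaling without acinar genes gave a call among the 10 at 18 weeks (0 each). At 6 weeks cadmium library 4, which had the highest acinar share of its group (7.11%), was the lowest of its group for 8 of the 10 genes. The libraries of highest acinar share in other groups were not alike in this. Cadmium library 4 at 18 weeks (16.3%) was the lowest of its group for 5 genes and the highest for 2. Vehicle library 2 at 6 weeks (4.34%) was the lowest for 1, and vehicle library 1 (3.20%) for 6. In RNA from whole islets, fewer cells of a type and less RNA per cell cannot be told apart.

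Related genes of the pathway showed no cadmium call either. This held for 13 other processing enzymes, 6 other granule cargo and membrane genes, 26 genes of granule formation and exocytosis and 8 prohormone substrates. In each of the 3 settings 0 members passed by edgeR. The test called 0% of all genes at 6 weeks, 0.359% at 18 weeks and 0.00597% in culture. Calls were few over all genes, so 0 calls in a list are no result about the list. Of the substrates, Ins2 differed between cadmium and vehicle by -0.06 ± 0.0752 (log2, SE) in the 6-week set, 0.19 ± 0.211 in the 18-week set and -0.11 ± 0.0881 in the cultured islets. For Gcg, the proglucagon gene, these values were 0.11 ± 0.0702, -0.11 ± 0.165 and 0.01 ± 0.0464.

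The second question was how the 10 genes differed between the 3 vehicle groups. These groups differ in time, culture, depth and the levels of other cell types' markers, and these cannot be told apart. At 18 weeks against 6 weeks 16 of 16 acinar, 5 of 5 macrophage and 5 of 5 stellate and fibroblast markers were lower (median log2 fold changes -2.12, -1.43 and -2.27), as were 6 of 6 ductal and 4 of 4 Schwann cell markers. In culture against 6 weeks 16 of 16 acinar and 5 of 5 endothelial markers were lower (-11.25 and -2.88) and 4 of 5 stellate and fibroblast markers were higher (1.20). The comparisons share libraries with each other and with the cadmium comparisons. At 18 weeks against 6 weeks 8 of the 10 passed, 1 higher and 7 lower, where edgeR called 71.8% of all genes (35.9% higher and 35.9% lower). In culture against 6 weeks 7 of the 10 passed, all lower, where it called 67.8% (33.0% higher, 34.8% lower). In culture against 18 weeks 6 passed, 3 higher and 3 lower, where it called 67.2% (30.6% higher, 36.6% lower). The medians of the 10 were -0.47, -0.38 and 0.04 on the log2 scale, beside 0.00, 0.00 and -0.05 over all genes tested. Groups were fully apart for 7, 6 and 5 of the 10, against 50.6%, 44.8% and 46.2% of 22721 genes. In either direction the shares of calls were near those of all genes, which is no result about the 10 as a set. Lower calls against 6 weeks were a larger share of the 10 than of all genes, which was not tested. What follows describes single genes.

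These differences moved with the base composition of transcripts, and the part of base composition in them was not tested beyond the alternatives given. From the fifth of genes with the lowest to the fifth with the highest GC content of the longest transcript, the median log2 fold change of vehicle at 18 weeks against 6 weeks was 0.59, 0.20, 0.00, -0.27 and -0.57. The transcripts of the 10 ranged from 40.6% GC (Pcsk1) to 59.5% (Ptprn). Differences of the 10 that passed are therefore set beside the median of all genes within 1 GC point, called genes of like GC content. Alternatives with an offset for GC content, or for GC content and length, were added after the data had been seen.

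Pcsk1 (ENSMUSG00000021587, chr13:75089826-75134861, plus strand) encodes the convertase PC1/3, which makes the first cuts in proinsulin. It held 861, 879, 938, 1050.1 and 998 CPM in vehicle at 6 weeks, 981 to 1366 CPM (median 1073) in the 6 vehicle libraries at 18 weeks, and 810.0, 748, 835, 747 and 779 CPM in vehicle culture. Culture libraries were below every library of both in vivo groups, and the in vivo groups overlapped. The log2 fold change was -0.24 ± 0.0586 in culture against 6 weeks (edgeR adjusted p = 0.00257) and -0.58 ± 0.0915 against 18 weeks (adjusted p = 4.36e-05), where genes of like GC content had medians of 0.18 and -0.39. At 18 weeks against 6 weeks it was 0.24 ± 0.100 (edgeR adjusted p = 0.0401), below the 0.52 median of genes of like GC content, and it turned to -0.32 with the GC offset. That call was lost without vehicle 6-week library 1, 2 or 3 or vehicle 18-week library 1 (adjusted p from 0.0509 to 0.114).

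Pcsk2 (ENSMUSG00000027419, chr2:143546156-143816285, plus strand) encodes PC2, the convertase that makes glucagon in alpha cells and also cuts proinsulin. Its vehicle libraries held 3729, 3730.3, 3619, 4238 and 3972 CPM at 6 weeks, 2078 to 2589 CPM (median 2322) at 18 weeks and 2461, 2273, 2562, 2384 and 2340.0 CPM in culture. Every library at 6 weeks was above every other vehicle library, and the 18-week and culture ranges overlapped. It was lower by a log2 fold change of -0.77 ± 0.0898 at 18 weeks and -0.65 ± 0.0554 in culture against 6 weeks, where genes of like GC content had medians of 0.12 and 0.08. Antisense genes overlap Pcsk2 and Ptprn, and other genes of the opposite strand overlap Scg3 (Gm37871) and Pcsk1n (Eras). Since the strand setting is not stated, their reads cannot be told apart from those of these genes.

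The balance of the convertases was read within each library as a ratio of counts per kb, which does not depend on library scaling but can still carry GC content. The Pcsk2 to Pcsk1 ratio was 2.90 ± 0.138 (SD, n = 5) in vehicle at 6 weeks, 1.46 ± 0.260 (SD, n = 6) at 18 weeks and 2.17 ± 0.0507 (SD, n = 5) in culture, and the 3 groups did not overlap. By exact two-sided permutation tests, adjusted over 24 comparisons of 4 ratios, the difference at 18 weeks against 6 weeks (0.498-fold) and that of culture against 18 weeks (1.51-fold) gave an adjusted p of 0.00742. Culture against 6 weeks (0.751-fold) gave 0.0190. Every ratio test that passed, here and below, had the lowest unadjusted permutation p that its group sizes allow (0.00216 or 0.00794). The gap between these p-values reflects group size, and they say only that the groups did not overlap. At 18 against 6 weeks genes of like GC content had medians of 0.12 for Pcsk2 and 0.52 for Pcsk1. The part of GC content in this ratio was not tested. In cadmium libraries the Pcsk2 to Pcsk1 ratio was 3.04 ± 0.0542, 1.69 ± 0.285 and 2.14 ± 0.109 in the same order of settings. It overlapped vehicle in each setting.

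**Figure D3:**
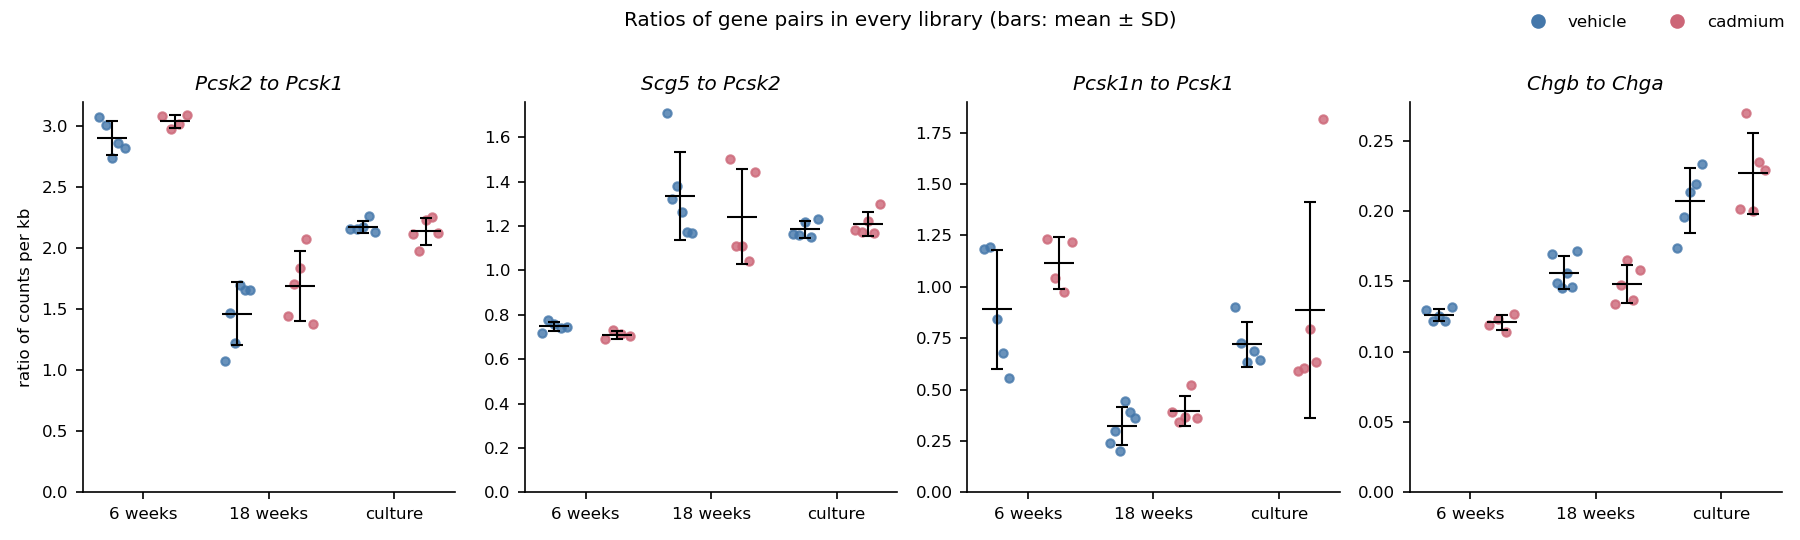
Ratio of counts per kb for 4 gene pairs in every library on linear axes from 0, vehicle in blue and cadmium in red, with bars for mean ± SD. The Pcsk2 to Pcsk1 ratio of vehicle libraries sits at 2.73 to 3.07 at 6 weeks, 1.08 to 1.70 at 18 weeks and 2.13 to 2.26 in culture.

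Scg5 (ENSMUSG00000023236, chr2:113776362-113829121, minus strand) encodes 7B2, the chaperone that PC2 needs to mature. Its level was 572 ± 35.5 CPM (SD, n = 5) at 6 weeks, 611 ± 64.5 CPM (SD, n = 6) at 18 weeks and 565 ± 36.0 CPM (SD, n = 5) in vehicle culture, and none of the 3 differences passed. With the GC and length offset Scg5 was lower at 18 weeks (-0.43) and in culture (-0.24) than at 6 weeks, and both passed. Its ratio to Pcsk2 was 0.748 ± 0.0210, 1.33 ± 0.200 and 1.18 ± 0.0375 per kb. Genes of like GC content had medians of 0.04 (Scg5) and 0.12 (Pcsk2) at 18 against 6 weeks. The ratio at 6 weeks was below that of the other vehicle groups with no overlap (exact permutation adjusted p = 0.00742 for 18 weeks and 0.0190 for culture), and 18 weeks and culture overlapped (adjusted p = 0.160). With cadmium at 6 weeks the ratio was 0.710 ± 0.0171 (SD, n = 4), the smallest adjusted p of the 12 cadmium ratio tests (0.0693), and none of the 12 passed.

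Pcsk1n (ENSMUSG00000039278, chrX:7919822-7924410, plus strand) held 107 to 187 CPM (median 139) in vehicle at 18 weeks, below all vehicle libraries at 6 weeks and in culture, whose values are given above. It differed by a log2 fold change of -1.23 ± 0.167 at 18 weeks against 6 weeks (edgeR adjusted p = 9.94e-06), beside -0.61 for genes of like GC content. Culture stood between, lower than 6 weeks by a log2 fold change of -0.52 ± 0.158 with overlapping libraries, and higher than 18 weeks by 0.62 ± 0.132, where genes of like GC content had medians of -0.23 and 0.26. The first of these no longer passed with the GC offset (-0.30). Its ratio to Pcsk1 fell from 0.891 ± 0.290 to 0.323 ± 0.0930 between 6 and 18 weeks and was 0.720 ± 0.108 in culture. The exact permutation adjusted p was 0.00742 for 18 weeks against either and 0.371 for culture against 6 weeks. At 18 against 6 weeks genes of like GC content had medians of -0.61 for Pcsk1n and 0.52 for Pcsk1. The part of GC content in this ratio was not tested.

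Cpe (ENSMUSG00000037852, chr8:64592542-64693054, minus strand) encodes carboxypeptidase E, which removes the basic residues left by the convertases. It held 3553 ± 98.6 CPM (SD, n = 5) in vehicle at 6 weeks, 2504 ± 198 CPM (SD, n = 6) at 18 weeks and 2672 ± 144 CPM (SD, n = 5) in culture. The libraries at 6 weeks, from 3417 to 3695 CPM, were above every other vehicle library. Cpe differed by a log2 fold change of -0.54 ± 0.0834 at 18 weeks and -0.38 ± 0.0490 in culture against 6 weeks, where genes of like GC content had medians of -0.05 and 0.02. Culture and 18 weeks did not differ past the threshold (0.06, 95% interval -0.09 to 0.21).

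Of the granins, Chga (ENSMUSG00000021194, chr12:102554969-102565028, plus strand), the chromogranin A gene, had 12786, 13825, 13408, 13914 and 12622 CPM in vehicle at 6 weeks, 7504 to 9992 CPM (median 9109) at 18 weeks and 8254, 7624, 7775, 6834 and 6834 CPM in culture. The 6-week libraries were above all others, and 18 weeks and culture overlapped. Its log2 fold change in culture was -0.81 ± 0.0671 against 6 weeks and -0.31 ± 0.0868 against 18 weeks, where genes of like GC content had medians of -0.25 and 0.26. At 18 weeks against 6 weeks it was -0.59 ± 0.0995, close to the -0.64 of genes of like GC content, and with the GC offset it was 0.059 and no longer passed.

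Chgb (ENSMUSG00000027350, chr2:132781278-132795079, plus strand), the chromogranin B gene, passed the edgeR test in 1 of the 3 vehicle comparisons, 18 weeks against 6 weeks. Its vehicle levels were 1668 ± 16.1 CPM (SD, n = 5) at 6 weeks, 1399 ± 125 CPM (SD, n = 6) at 18 weeks and 1529 ± 90.2 CPM (SD, n = 5) in culture. Chgb differed by a log2 fold change of -0.29 ± 0.0822 at 18 weeks against 6 weeks (edgeR adjusted p = 0.00554), beside -0.37 for genes of like GC content, and with the GC offset it was 0.094 and did not pass. The Chgb to Chga ratio per kb was 0.126 ± 0.00456 at 6 weeks, 0.156 ± 0.0117 at 18 weeks and 0.207 ± 0.0230 in culture, with no overlap between the groups. The exact permutation adjusted p was 0.00742 for 18 against 6 weeks and for culture against 18 weeks, and 0.0190 for culture against 6 weeks. At 18 against 6 weeks genes of like GC content had medians of -0.37 for Chgb and -0.64 for Chga. The part of GC content in this ratio was not tested.

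Scg2 (ENSMUSG00000050711, chr1:79434669-79440120, minus strand) held 7202 to 10671 CPM (median 7929) in vehicle at 18 weeks and 5222, 4729.7, 5463, 5191 and 5320.5 CPM in vehicle culture. Every culture library was below every in vivo vehicle library, and the in vivo groups overlapped. The log2 fold change in culture was -0.64 ± 0.0579 against 6 weeks (edgeR adjusted p = 6.55e-07) and -0.72 ± 0.102 against 18 weeks (adjusted p = 1.46e-05), where genes of like GC content had medians of 0.08 and -0.10. Between 18 and 6 weeks it was -0.01 ± 0.110 and did not pass.

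Scg3 (ENSMUSG00000032181, chr9:75643189-75684056, minus strand) encodes secretogranin III, which ties chromogranin A to the cholesterol-rich granule membrane. It was lower at 18 weeks, at 1113 ± 78.9 CPM (SD, n = 6), than at 6 weeks, at 1428 ± 92.6 CPM (SD, n = 5), or in culture, at 1373 ± 72.6 CPM (SD, n = 5), and its 18-week libraries (979.8 to 1176 CPM) did not overlap either. The log2 fold changes were -0.40 ± 0.0778 for 18 against 6 weeks and 0.27 ± 0.0671 for culture against 18 weeks, where genes of like GC content had medians of 0.15 and -0.12. Culture against 6 weeks was -0.03 ± 0.0550 and did not pass.

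Ptprn (ENSMUSG00000026204, chr1:75247027-75264502, minus strand) encodes IA-2, a receptor-type phosphatase family protein of the granule membrane and an autoantigen in type 1 diabetes. It had the largest difference of the 10 between vehicle groups. Libraries held 624, 608, 662, 671 and 677 CPM at 6 weeks, 139 to 204 CPM (median 173) at 18 weeks and 504, 508, 500.2, 482 and 451 CPM in culture, and the 3 groups did not overlap. The log2 fold change was -1.94 ± 0.0957 at 18 weeks against 6 weeks (edgeR adjusted p = 2.71e-10), beside -0.67 for genes of like GC content. In culture it was 1.46 ± 0.0880 against 18 weeks (0.27 for genes of like GC content) and -0.38 ± 0.0470 against 6 weeks (-0.27). The last no longer passed with the GC offset (-0.12). The cadmium libraries stood at 651 ± 33.4 CPM (SD, n = 4), 178 ± 17.8 CPM (SD, n = 5) and 496 ± 24.3 CPM (SD, n = 5) in the same order.

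**Figure D4:**
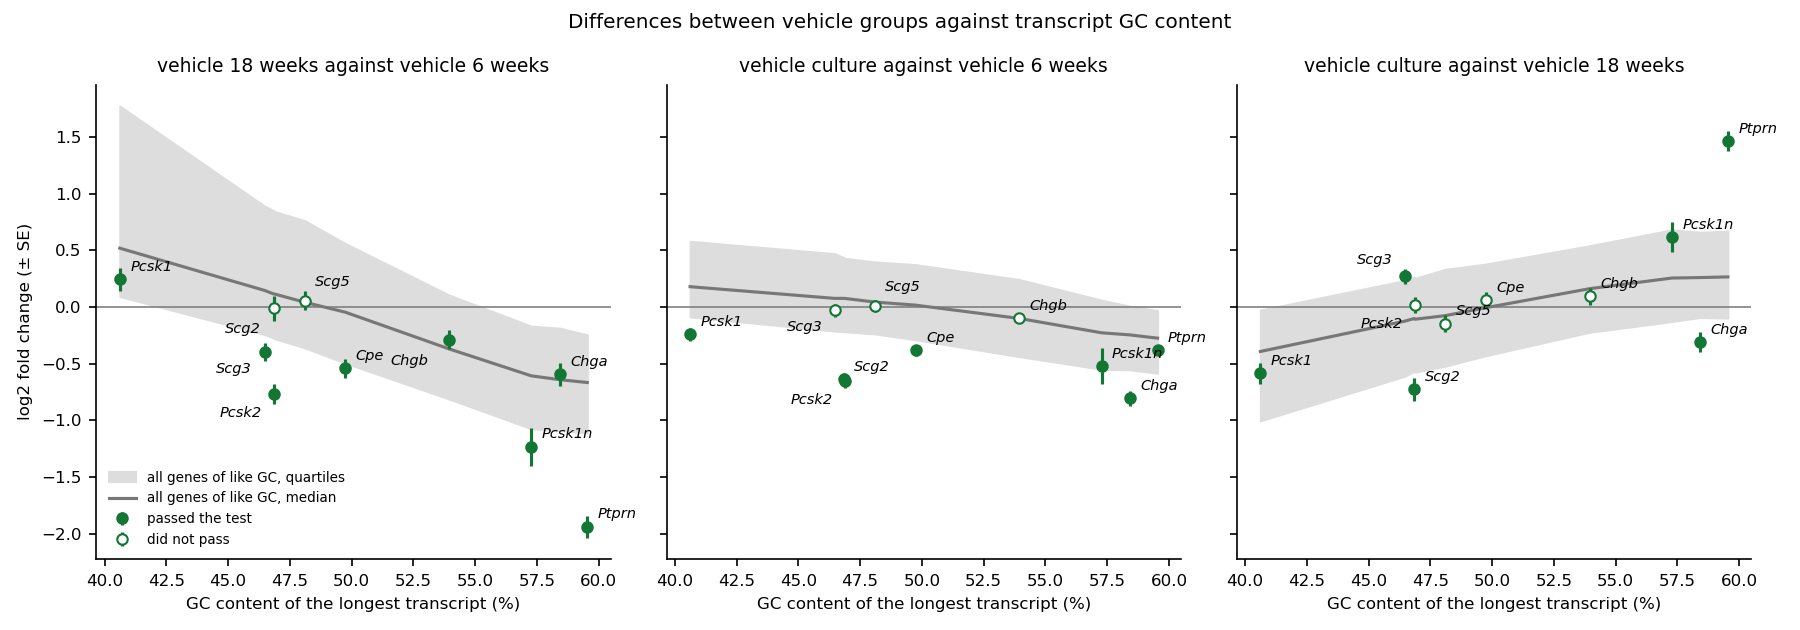
Log2 fold change ± SE between vehicle groups (vertical axis) against GC content of the longest transcript in percent (horizontal axis), with filled points for genes that passed the edgeR test and open points for those that did not. The grey line and band join the median and quartiles of all tested genes within 1 GC point of each gene, and Ptprn at 59.5% GC lies at -1.94 in the first panel, where that median is -0.67.

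Other genes of the pathway were counted the same way, and their counts are read against the share of all genes called. At 18 weeks against 6 weeks that share was 71.8% (35.9% higher and 35.9% lower), so calls in most members of a list are no result about the list. The split of a list by direction was not tested. At 18 weeks against 6 weeks, 1 of 13 other processing enzymes was higher and 10 were lower, led by Furin at -1.50 ± 0.108, a convertase of the constitutive secretory pathway, while Pam, which amidates peptide ends, was higher at 0.52 ± 0.0724. Of 6 other granule cargo and membrane genes 1 was higher (Nucb2) and 4 were lower, among them Ptprn2, the paralog of Ptprn, at -0.62 ± 0.0741. Of 26 genes of granule formation and exocytosis 7 were higher and 14 lower, with Vamp2, a part of the fusion machinery, at -2.56 ± 0.122. Of 8 substrates 1 was higher (Iapp, 0.37 ± 0.123) and 6 lower, with Ins2 at -1.08 ± 0.147, Gcg at -0.79 ± 0.145 and Ins1 at -0.36 ± 0.129. The list medians were -0.59, -0.48, -0.22 and -0.72, beside 0.00 over all genes tested. Fold changes of the pathway genes, here and in culture below, are not set beside genes of like GC content. The part of GC content in them was not tested.

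In culture against 6 weeks, where 67.8% of all genes were called, the same lists had 4 higher and 7 lower, 1 and 4, 5 and 15, and 2 and 4 (medians -0.16, -0.43, -0.12 and -0.50). Ctsl, a lysosomal protease, was higher at 1.04 ± 0.0372, Rab3d was lower at -0.89 ± 0.0411, and Ins1 was lower at -1.14 ± 0.0649 while Gcg was higher at 0.57 ± 0.0615. In culture against 18 weeks, where 67.2% of all genes were called, they had 8 higher and 1 lower, 1 and 2, 7 and 12, and 3 and 2 (medians 0.32, -0.12, -0.05 and 0.03). Vamp2 was higher at 2.24 ± 0.119, as Ptprn was, and Gcg was higher at 1.26 ± 0.13. The summed share of 5 alpha cell markers, Gcg among them, was 1.69% ± 0.0974 (SD, n = 5) of counts in vehicle at 6 weeks, 1.10% ± 0.185 (SD, n = 6) at 18 weeks and 2.88% ± 0.0837 (SD, n = 5) in culture. The markers did not all move alike. At 18 against 6 weeks 3 were called lower and 0 higher, and in culture against 6 weeks 3 higher and 1 lower. In culture against 18 weeks 4 were called higher and 0 lower. The part of cell makeup in the differences was not tested.

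Genes with the pattern most like each of the 10 were found as the smallest root mean square difference of centred log2 CPM over all 30 libraries, among 22711 other genes. They were Oxr1 for Pcsk1 (0.0861 log2 units), Tmem214 for Pcsk2 (0.103), Zdhhc5 for Cpe (0.0648), Actr10 for Scg5 (0.0791) and Gas2l1 for Pcsk1n (0.262). For the granins they were Rab3d for Chga (0.0808), Nmt1 for Chgb (0.0804), Golph3 for Scg2 (0.117) and Atxn7l3b for Scg3 (0.0803), and for Ptprn Tmem184b (0.112). Rab3d, and Ptprn2 as the second nearest to Pcsk2 (0.103), also stand on the pathway lists above. Within the 10, the nearest to one another were Pcsk2 and Cpe (0.140), and Ptprn and Pcsk1n stood farthest from any other (0.491 and 0.453 to their nearest). The libraries share their depth and base composition differences, so these distances are a description.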

How the data were processed

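RNA sequencing of 30 islet libraries in 6 groups was analysed from unnormalized whole-number counts of reads for each Ensembl gene, as deposited by the authors. Per the submitters' processing notes, cutadapt 1.13, STAR, HTSeq 0.6.1p1, DESeq2 and build mm10 were used. The annotation release, strand setting and handling of multiply mapped reads are not stated in the sources used here. The genes, lists and tests were chosen with earlier results of these data known. Named genes were all 10 members, from each pathway list at most the 4 passing genes of smallest p and the 4 substrates Ins1, Ins2, Iapp and Gcg, and the 2 genes most like each member.

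Pairs of groups were fitted with edgeR 4.0.16 (R 4.3.3), quasi-likelihood test, filterByExpr (minimum count 10, total 15), TMM and Benjamini-Hochberg adjustment, called under 0.05. Fold changes ± SE come from these fits, levels from 1 scaling of all 30 libraries. Exon lengths, GC content and coordinates are from GENCODE vM21 (GRCm38, the same assembly as mm10), and 54079 of 54232 IDs matched a symbol. Among 61 pairs of libraries within groups 0 were identical (lowest chi-square per degree of freedom 2.77), so each counted as a sample. Counts were also simulated with 100 genes changed 1.5-fold and another 100 changed 2-fold. Of those changed 1.5-fold the test recovered 91% at 6 weeks, 71% at 18 weeks and 99% in culture. So many changed genes make the adjusted threshold easier to reach than in the cadmium comparisons, which called 0, 75 and 1 genes. These rates therefore do not give the power for a single changed gene. The simulated counts also varied independently from gene to gene, without shared shifts by GC content, acinar share or replicate number. Genes of the lowest levels were not among those changed. Alternatives were DESeq2, RLE scaling, no filter, acinar adjustment, a replicate block, leaving out libraries, and GC and length offsets.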

Additional observations from a re-analysis of the deposited data

Results flagged for a closer look

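The values of 4 single libraries stood apart from the rest of their group by Dixon's test at the 95% level, among 60 groups of a gene, where chance alone gives about 1 in 20. Ptprn was 147 CPM in cadmium library 3 at 18 weeks, against 183 to 188 CPM in the other 4. Pcsk1 was 819.5 CPM in cadmium library 4 at 6 weeks, against 939 to 947 CPM. Pcsk1n was 480.1 CPM in cadmium culture library 5, against 184 to 239 CPM, and 286 CPM in vehicle culture library 1, against 196 to 213 CPM.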

How the results depend on the processing

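Of 1980 values of single genes under the alternatives, 1958 kept their direction (where they had passed) and their side of the threshold, 9 no longer passed, 6 newly passed and 7 turned. A further 189 changes of sign were of values that passed on neither side. None of 1400 cadmium values passed (lowest adjusted p 0.0948). The 7 that turned arose with the offsets added after seeing the data. With the GC offset, Pcsk1 at 18 against 6 weeks was -0.32, Chga 0.059 and Chgb 0.094. With the GC and length offset, Pcsk1 was -0.025, Chgb 0.14 and Scg5 -0.43, and Scg5 in culture against 6 weeks was -0.24. The cause was not tested. Over all alternatives 6 to 8 of the 10 genes passed at 18 against 6 weeks, 5 to 8 in culture against 6 weeks and 6 to 7 in culture against 18 weeks. Counts over all genes moved more, from 0 to 2496 calls for cadmium at 18 weeks (75 as reported), from 0 to 2546 for the difference in cadmium effect between 18 and 6 weeks (382) and from 0 to 1057 for that between culture and 18 weeks (4), and DESeq2 called 11 genes at 6 weeks (0). By leaving out single libraries the call count for cadmium at 18 weeks ran from 0 to 318.

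The labels do not say what a replicate number marks, and not every same-numbered pair correlated past the limit set, so the libraries were not treated as paired. The intervals, SEs and overlap statements above are therefore unpaired. They could miss a difference within pairs if the numbers do mark pairs. Correlations were 0.07 to 0.29 in culture, where each library correlated best with its own number, a hint from the data and not the design, and -0.09 to 0.27 between in vivo vehicle and cadmium libraries. With a replicate block 0 of the 10 genes passed in the 3 cadmium comparisons and 8, 7 and 6 in the vehicle comparisons, while calls over all genes in culture went from 1 to 223. Paired sign-flip tests of the ratios cannot reach the threshold (lowest adjusted p 0.136). DESeq2 and the fit with no filter, which test more genes, put the median log2 fold change over all genes at 0.33 and 0.17 for 18 against 6 weeks and at -0.28 and -0.25 for culture against 18 weeks. DESeq2 split the cadmium calls at 18 weeks into 550 higher and 215 lower, against 72 and 3 as reported, and it called Chgb in culture against 6 weeks (-0.11). Without the 3 shallow 18-week libraries 0 of the 10 passed with cadmium.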
